A study of Arabidopsis thaliana with 9 samples.

Results

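The distal short arms of chromosomes 2 and 4 of Arabidopsis thaliana were examined as the broad peaks of H3K27me1 and H3K27me3 whose midpoints lie in the first 1 Mb of chromosome 2 or the first 2 Mb of chromosome 4. The choice used position alone. It gave 909 peaks of 24825 in all, with 460 of 11898 H3K27me1 peaks and 449 of 12927 H3K27me3 peaks. Chromosome 2 held 156 H3K27me1 and 150 H3K27me3 peaks, and chromosome 4 held 304 and 299 in the same order of marks.

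H3K27me1 is a histone mark that the methyltransferases ATXR5 and ATXR6 place in Arabidopsis, and it is best known from silent heterochromatin around the centromeres. H3K27me3 is placed by the Polycomb repressive complex and is known from silent developmental genes in the chromosome arms. The short arms of chromosomes 2 and 4 are the arms that end in the nucleolus organiser regions, long tandem arrays of ribosomal RNA genes (rDNA), and the short arm of chromosome 4 also carries a heterochromatic knob in the Col-0 accession.

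The 9 samples were sperm nuclei sorted from htr10 mutant plants, as 3 H3K27me1 immunoprecipitations, 3 H3K27me3 immunoprecipitations and 3 inputs, all from mononucleosomes cut with micrococcal nuclease. HTR10 (MGH3, AT1G19890) encodes a histone H3 variant of the male gamete, and every sample carries its mutation, so no sample with intact HTR10 enters here. The ecotype label is Col-0 for the inputs and for H3K27me1 replicates 1 and 2, and reads Col-1 to Col-4 for the other samples. One broad and one narrow peak list exist per mark, with no value per sample, so the spread between replicates and the depth behind each peak are unknown and no test between regions was possible. The labelled cell type could not be checked, since peaks give no marker expression, and neither mark had a peak on HTR10 itself.

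In the broad lists the coverage of the short-arm ends was near that of the pericentromeres for H3K27me1 and above it for H3K27me3, and for both marks several times that of the other chromosome ends. H3K27me1 peaks lay on 33.2% of the bases of the short-arm ends, against 8.67% of the 8 other 1 Mb arm ends and 32.9% of the 5 pericentromere windows. H3K27me3 peaks lay on 32.6% of the short-arm ends, against 11.8% of the other arm ends and 26.8% of the pericentromeres. Chromosome 2 had 37.1% under H3K27me1 and 37.4% under H3K27me3, and chromosome 4 had 31.3% and 30.3%. For H3K27me1 each lay below the pericentromere of its own chromosome, which had 39.8% on chromosome 2 and 33.6% on chromosome 4. For H3K27me3 each lay above it, since these pericentromeres had 33.0% and 28.5%. No other arm end came near these values. The 8 other ends ran between 6.16% and 10.9% for H3K27me1 and between 8.59% and 15.0% for H3K27me3.

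Relative to the other arm ends the coverage was 3.83 times as high for H3K27me1 and 2.76 times as high for H3K27me3. Peaks were denser, with 153 H3K27me1 peaks per Mb against 77.8 at the other ends, and 149.7 H3K27me3 peaks per Mb against 98.8. In the narrow lists, which mark the sharper summits, the ratios over the other ends were 7.09 and 4.84. Against the pericentromeres the ratio was 1.01 for H3K27me1 and 1.22 for H3K27me3, and the first did not keep its side of 1 in the narrow lists, where it was 0.873. In the subset of peaks at or above 5 in −log10 q both marks covered less of the short-arm ends than of the pericentromeres, at 0.564 times for H3K27me1 and 0.711 times for H3K27me3, while the ratios over the other arm ends were 17.0 and 10.7. The short-arm ends make up 2.52% of the chromosomes and held 4.85% of all H3K27me1 territory and 4.80% of all H3K27me3 territory.

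On chromosome 2 and chromosome 4 both windows touch the pericentromere windows used here, which begin at 1 Mb on chromosome 2 and at 2 Mb on chromosome 4, so the 1 Mb flanks outside the pericentromeres were set beside them. These flanks averaged 25.3% for H3K27me1 and 24.8% for H3K27me3. The right flank on chromosome 4 had 35.5% and 34.9%, and the left flank on chromosome 3 had 35.5% and 30.8%. Single flanks thus reached the level of the chromosome 4 short-arm end, 31.3% and 30.3%. None reached that of the chromosome 2 short-arm end, 37.1% and 37.4%. The next 1 Mb outward averaged 18.3% and 18.8%, with a highest value of 25.6% for H3K27me1 and 24.7% for H3K27me3.

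**Figure D1:**
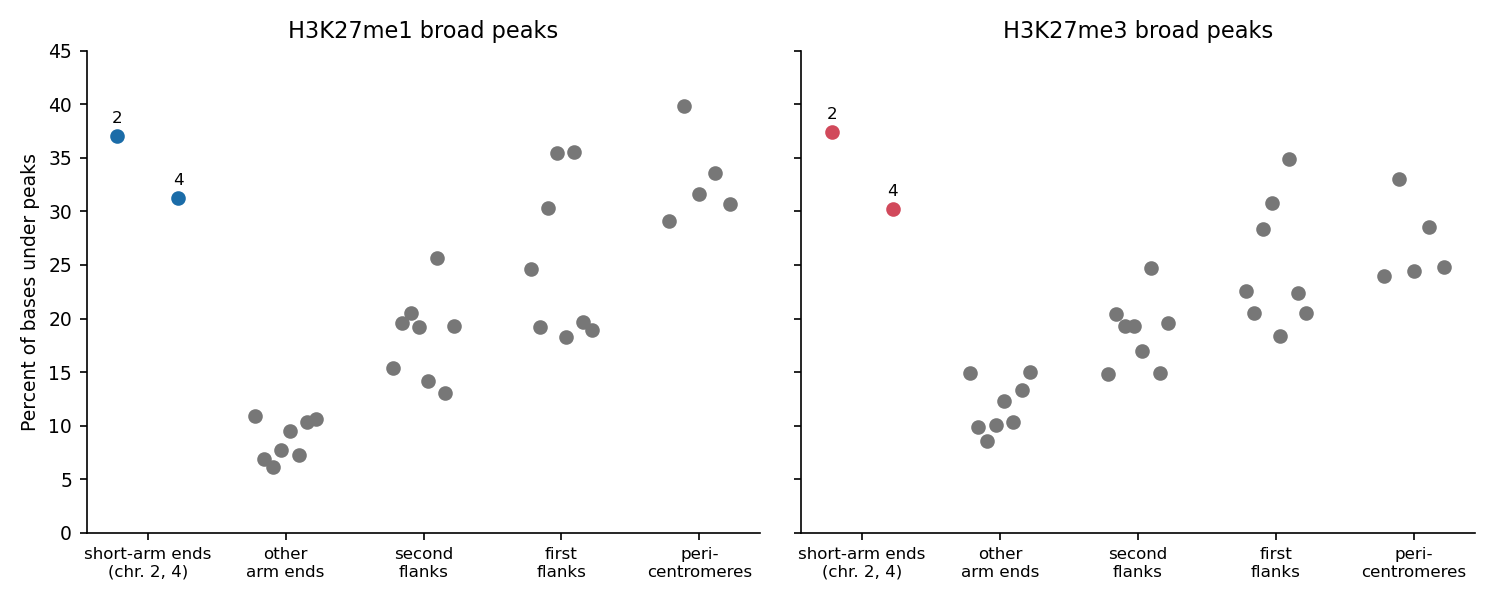
Percent of bases under broad peaks (y axis) in each region, H3K27me1 in the left panel and H3K27me3 in the right. Each point is 1 region of the pooled list, coloured for the short-arm ends of chromosomes 2 and 4 and grey for the others, which shows both short-arm ends above all 8 other arm ends and within the range of flanks and pericentromeres for H3K27me1.

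Along chromosome 2 the first 100 kb stood apart from the rest of the window. That bin had 10.55% of its bases under H3K27me1 and 10.4% under H3K27me3, with protein-coding genes on 29.4% of it. The other 9 bins had between 33.5% and 46.5% under H3K27me1 and between 34.9% and 49.8% under H3K27me3. The bin held a stretch with no peak of either mark from 10279 to 41885, a length of 31.6 kb, and a second of 15.2 kb from 81841 to 97018. The bin from 200 to 300 kb had the highest H3K27me3 coverage, and that from 400 to 500 kb the highest H3K27me1 coverage. Over the 10 bins Pearson's r of coverage with the coding share was 0.69 for H3K27me1 and 0.62 for H3K27me3, and without the first bin it was -0.18 and -0.27.

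Chromosome 4 fell into a gene-rich stretch and a gene-poor one. In the 16 bins up to 1.6 Mb coverage ran between 18.9% and 34.8% for H3K27me1 and between 18.02% and 35.9% for H3K27me3, and genes took up between 33.3% and 84.3% of a bin. The lowest coverage of both marks was in the bin from 200 to 300 kb, which was also the richest in genes. In the 4 bins between 1.6 and 2 Mb genes took up between 4.72% and 12.6%, and the marks parted. H3K27me1 covered between 33.3% and 45.04% of these bins and H3K27me3 between 24.2% and 33.0%, with H3K27me1 ahead in all 4 by 3.13 to 12.03 percentage points. Up to 1.6 Mb H3K27me1 was ahead in 6 of 16 bins. In pericentromere bins with under 20% coding bases H3K27me1 was ahead in 159 of 163, so the gene-poor stretch had the order of marks usual there. Over all 20 bins r with the coding share was -0.73 for H3K27me1 and -0.08 for H3K27me3. Up to 1.6 Mb these values were -0.46 and -0.49, so the gap between the marks rests on the last 4 bins. The 1.6 Mb border was set after the bins had been seen.

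**Figure D2:**
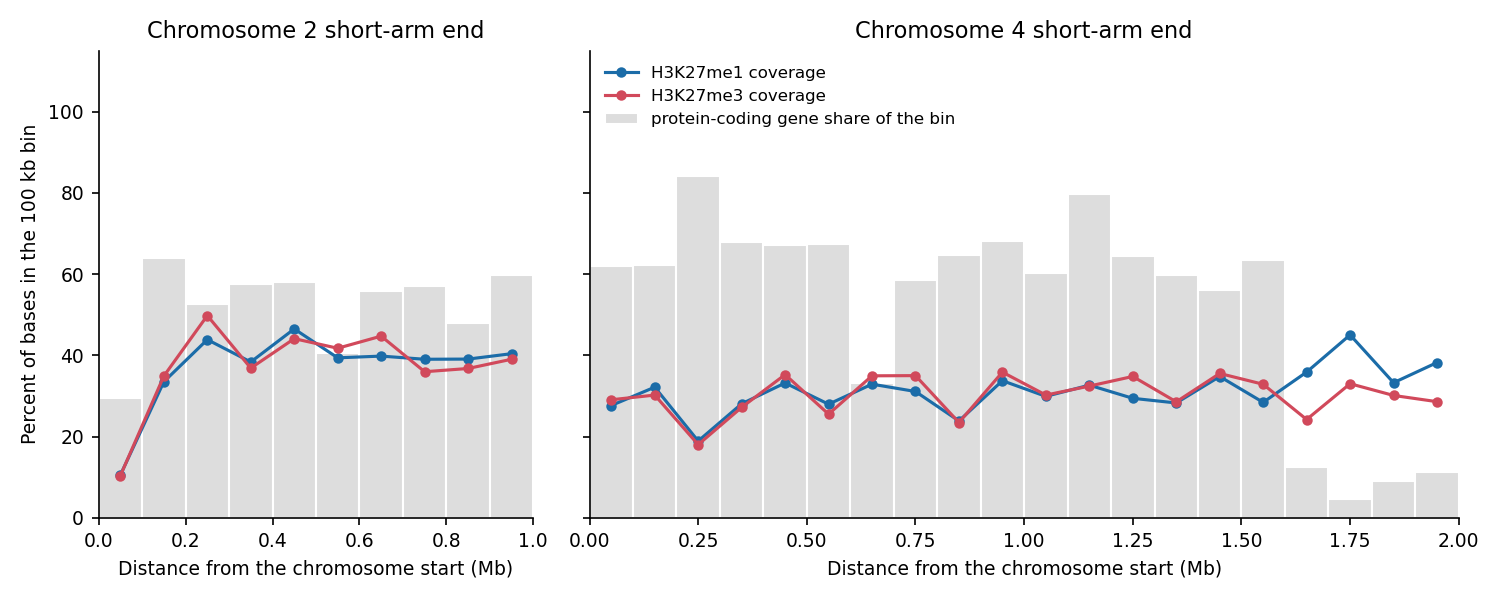
Percent of bases in each 100 kb bin (y axis) against distance from the chromosome start in Mb (x axis). Lines give coverage by H3K27me1 and H3K27me3 broad peaks and grey bars the share of the bin in protein-coding genes, with the low first bin on chromosome 2 (10.55% and 10.4%) and the 4 gene-poor bins at the inner end of chromosome 4, where the H3K27me1 line runs above the H3K27me3 line.

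At like gene content the short-arm ends were covered more than the other arms taken as a whole. Distance to the pericentromeres was not matched. The first flanks averaged 25.3% under H3K27me1 and 24.8% under H3K27me3, and the right flank on chromosome 4, with 50.4% coding bases, had 35.5% and 34.9%. Protein-coding genes took up 52.7% of the short-arm ends, against 71.0% of the other arm ends, 20.7% of the pericentromeres and 55.5% of the first flanks. Among 100 kb bins with 50 to 70% coding bases, the 20 in the short-arm ends had a median coverage of 32.7% for H3K27me1 and 35.0% for H3K27me3. The 495 such bins in the arms elsewhere had medians of 10.999% and 13.3%, and the 20 in the pericentromeres had 32.3% and 27.1%. At least 25% was covered in 19 of the 20 short-arm bins by each mark, against 26 of 495 arm bins for H3K27me1 and 31 of 495 for H3K27me3. Of the 20 such pericentromere bins 14 reached this level for H3K27me1 and 13 for H3K27me3. Over the whole windows 27 of 30 bins reached 25% for H3K27me1 and 26 of 30 for H3K27me3. In the rest of the genome 22.6% and 19.0% of 1158 bins did.

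**Figure D3:**
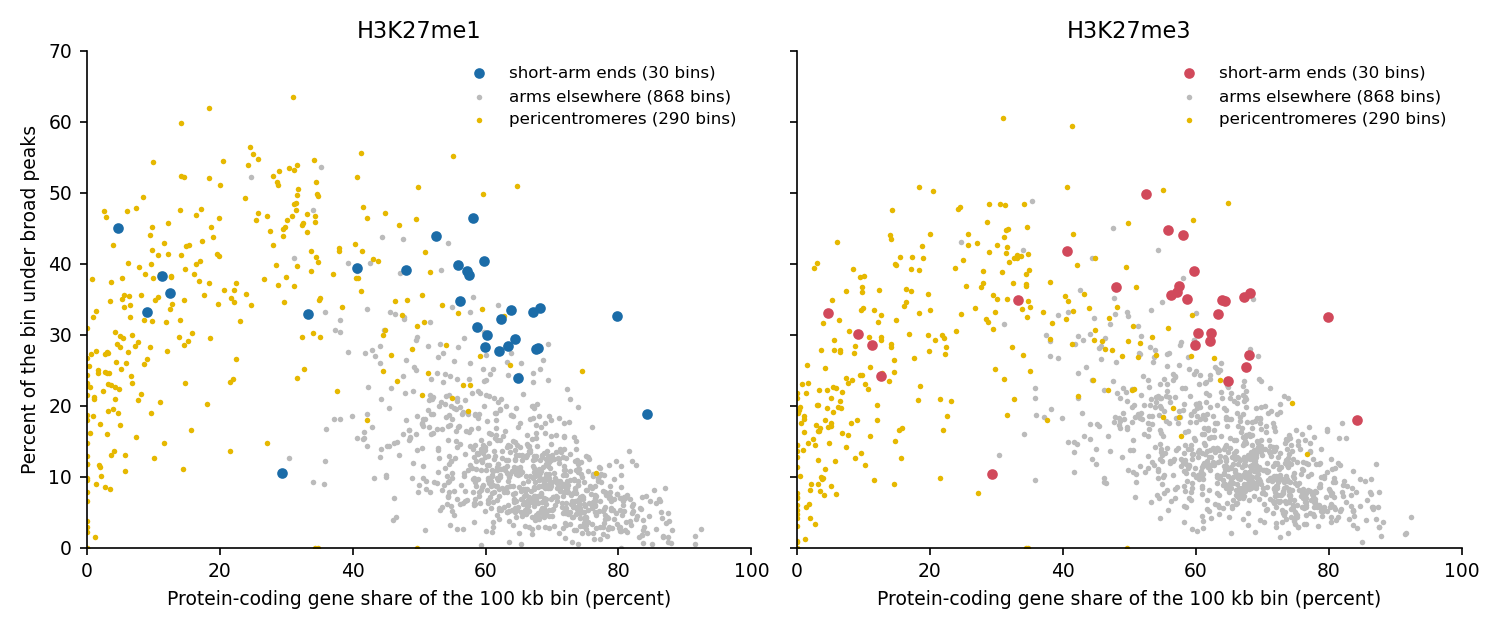
Percent of a 100 kb bin under broad peaks (y axis) against the percent of the bin in protein-coding genes (x axis), for H3K27me1 in the left panel and H3K27me3 in the right. Large coloured points are bins of the short-arm ends, grey points bins of the other arms and yellow points pericentromeric bins, and among bins with 50 to 70% coding bases the short-arm points have medians of 32.7% and 35.0%, above most grey points.

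The peaks next to the rDNA on chromosome 2 had the smallest q values of both lists, at folds far from the highest. The reference sequence of chromosome 2 opens with annotated ribosomal RNA genes. An H3K27me1 peak at chr2:2426-3771 was enriched 1.69-fold over control at a q value of 49.2 on the −log10 scale, and the H3K27me3 peak beside it at chr2:2407-3766 was enriched 1.89-fold at 53.1. A further pair lay at chr2:9682-10188 for H3K27me1, enriched 1.48-fold at 80.6, and at chr2:9666-10278 for H3K27me3, enriched 1.603-fold at 106. These 2 q values were the top of each list, while the folds ranked 9136 of 11898 and 7641 of 12927. The folds of the first pair ranked higher, 2824 for H3K27me1 and 1329 for H3K27me3. Only 3 H3K27me1 peaks and 2 H3K27me3 peaks in the genome were at or above 40 in −log10 q, and 2 of each lay here. Fold and q are the authors' own values and are compared only within a list. The annotated ribosomal RNA gene AT2G01010, which lies between the pairs, was covered over 3.65% of its length by H3K27me1 and 3.37% by H3K27me3, and AT2G01020 over 0% by both. The number of reads and of repeat copies behind these peaks is not known, and their part in the q values was not tested.

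Chromosome 4 opened differently. Its first H3K27me1 peak, chr4:1932-6624, was enriched 2.01-fold at a −log10 q value of 8.37, and its first H3K27me3 peak, chr4:2095-6717, was enriched 1.98-fold at 5.47. Both lay over one end of BRCA2(IV) (AT4G00020), a gene of homologous recombination and DNA repair. The longest stretches of chromosome 4 with no peak were 26.4 kb, from 1308286 to 1334655, and 24.5 kb, from 1785237 to 1809732, and 4 exceeded 20 kb. On chromosome 2 only the stretch beside the rDNA did.

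Peaks of the short-arm ends were wider than those of the other ends, with folds that differed little. The median width was 1674 bp for H3K27me1, against 908.5 bp at the other arm ends and 1752.5 bp in the pericentromeres. For H3K27me3 it was 1567 bp, against 946.5 bp and 1533 bp. Peaks over 5 kb numbered 34 of 460 for H3K27me1 and 33 of 449 for H3K27me3, against 1 of 622 and 2 of 790 at the other arm ends. Over all chromosomes they numbered 617 of 11898 (5.19%) for H3K27me1 and 452 of 12927 (3.50%) for H3K27me3, so such peaks were not confined to the short-arm ends. The median fold was 1.604 for H3K27me1 against 1.55 at the other ends, and 1.67 for H3K27me3 against 1.63. The level of 5 in −log10 q was reached or passed by 23.3% of H3K27me1 peaks against 7.07% at the other ends and 36.9% in the pericentromeres. For H3K27me3 the shares were 16.9%, against 5.44% and 24.4%.

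**Figure D4:**
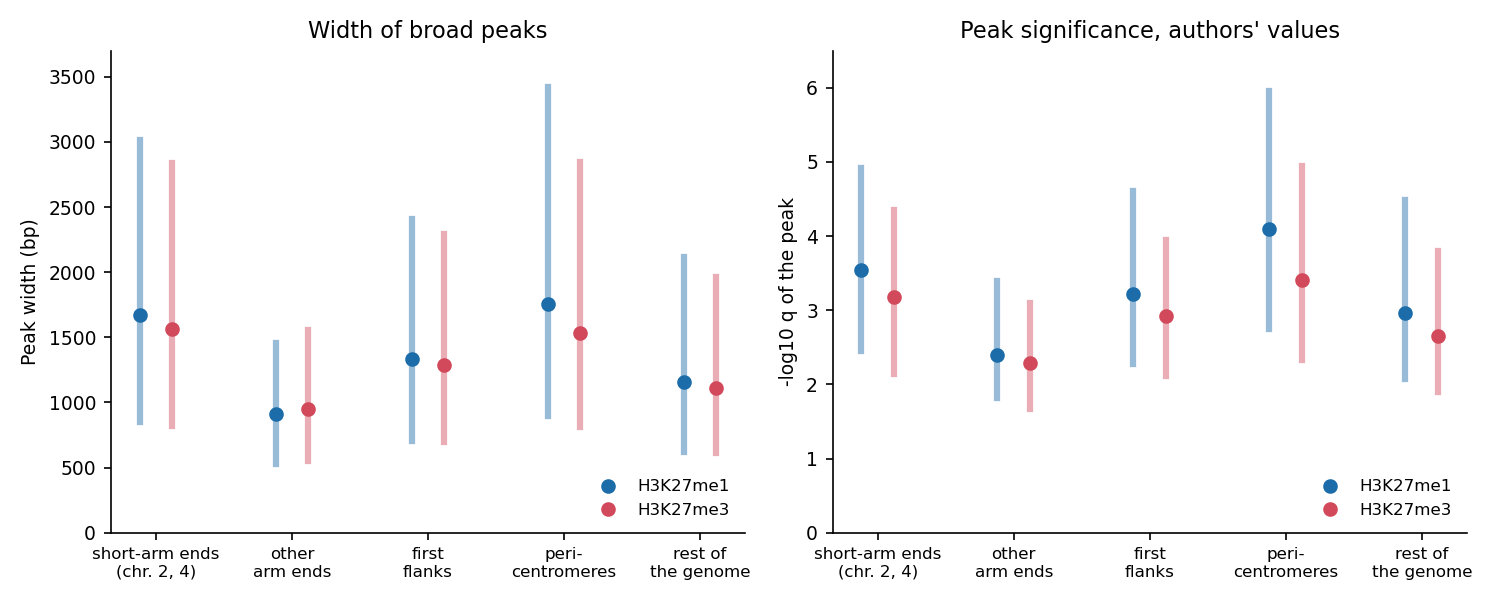
Width in bp (left) and −log10 q (right) of broad peaks by region, with the dot at the median and the bar from the lower to the upper quartile over peaks. The short-arm medians, 1674 bp (H3K27me1) and 1567 bp (H3K27me3), sit near the pericentromeric ones and above the 908.5 bp and 946.5 bp of the other arm ends.

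The widest peaks took in genes or parts of genes together with the spaces beside them. The widest of all was an H3K27me3 peak of 17265 bp at chr2:281450-298714, with a fold of 1.69. It touched 9 annotated genes, among them PUX2, PDLP6 and NUDT17, and 67.5% of it was also under H3K27me1. The widest H3K27me1 peak, 11422 bp at chr2:428331-439752 with a fold of 1.53, and an H3K27me3 peak of 12535 bp at chr2:428275-440809 both lay over the whole of SGR5 and one end of BPC1. SGR5 is a zinc finger gene of shoot gravitropism, and BPC1 encodes a GAGA-binding factor that in plants helps to recruit Polycomb complexes. On chromosome 4 the widest H3K27me1 peak, 9967 bp at chr4:587174-597140, touched the amino acid transporter genes UMAMIT29 and UMAMIT31. The widest H3K27me3 peaks there were 11737 bp at chr4:1773500-1785236 and 10370 bp at chr4:739589-749958. The 10370 bp peak lay over WRKY47, a transcription factor gene.

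The peaks of highest fold were mostly short and mostly sat at the edges of genes or between them. The highest on chromosome 4 were an exception. They were a pair at chr4:1866487-1871306 for H3K27me1, with a fold of 2.40 that ranked 29 in its list, and at chr4:1866558-1871301 for H3K27me3, also 2.40 and ranked 42. Both lay in the gene-poor stretch. They were 4820 and 4744 bp wide, and each touched 4 annotated genes. On chromosome 2 an H3K27me3 peak of 619 bp at chr2:52232-52850, with no gene under it, had a fold of 2.55 and ranked 20, and the H3K27me1 peak around it, chr2:52189-53190, had 2.12. Other high folds were 2.34 for H3K27me3 at chr2:582574-584021, at the end of the phytosulfokine receptor gene PSKR1, and 2.22 for H3K27me3 at chr4:1103433-1104478, across the gap between the xyloglucan xylosyltransferase gene XT2 and the chloroplast import receptor gene TOC159.

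Both marks mostly occupied the same stretches. Of the H3K27me1 peaks 89.6% (95% Wilson interval 86.4 to 92.0) touched an H3K27me3 peak, against 87.8% at the other arm ends and 84.3% in the pericentromeres. Of the H3K27me3 peaks 91.8% (88.8 to 94.0) touched an H3K27me1 peak, against 68.7% and 96.1%. Such intervals cover counting error only. Shared bases came to 811 kb, which was 81.4% of H3K27me1 territory and 82.8% of H3K27me3 territory. At the other arm ends these shares were 78.5% and 57.6%, and in the pericentromeres 75.4% and 92.6%. The sources used here do not say which input entered which list, so the lists may share their controls, and the overlap is a description of them and not evidence that the marks share nucleosomes.

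Peaks of the 2 marks that paired one to one also had similar borders. Over 340 pairs the median distance between starts was 74 bp and between ends 67.5 bp, and in 43.5% of pairs both borders lay within 150 bp. Border distances were measured only in the short-arm ends, so they cannot be set beside those of other regions. Summits of narrow peaks lay within the length of a nucleosome core of a summit of the other mark for 53.1% of 482 H3K27me1 peaks, against 46.6% at the other ends and 52.6% in the pericentromeres. For the 458 H3K27me3 narrow peaks the share was 55.9%, against 36.7% and 65.5%. Peaks with no base of the other mark numbered 48 of 460 for H3K27me1 and 37 of 449 for H3K27me3. Over all chromosomes they numbered 1608 of 11898 and 2359 of 12927. The stretch of chromosome 4 between 1.6 and 2 Mb was less even, with 67.7% of H3K27me1 territory but 89.0% of H3K27me3 territory shared.

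Peaks favoured the spaces between genes, yet reached into genes more than at the other ends. Of the bases in protein-coding genes 17.2% were under H3K27me1, against 2.57% at the other arm ends and 22.2% in the pericentromeres. H3K27me3 covered 18.2% of these bases, against 3.90% and 17.9%. Of the bases within 1 kb of a gene 58.9% were under H3K27me1 and 57.4% under H3K27me3, against 24.4% and 32.3% at the other arm ends. From 1 to 5 kb the short-arm values were 68.8% and 68.0%, against 25.4% and 33.2%. Coding genes took up 52.7% of the short-arm ends but supplied 27.2% of H3K27me1 peak bases and 29.3% of H3K27me3 peak bases. Seen gene by gene, mean coverage in the 1 kb on both sides was 42.2% for H3K27me1 and 43.1% for H3K27me3, and inside the genes 20.5% and 21.5%.

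Of the 684 protein-coding genes of the short-arm ends, 107 (15.6%, interval 13.1 to 18.6) were covered over at least 50% of their length by H3K27me1, where 5.49% of all nuclear coding genes were. H3K27me3 covered 118 (17.3%, 14.6 to 20.3), where the share of all genes was 5.67%. Both marks covered 78 (11.4%), where the share of all genes was 3.73%. H3K27me1 alone passed this threshold in 29 genes (4.24%) and H3K27me3 alone in 40 (5.85%). Of all nuclear coding genes 1.76% and 1.94% did, and in the pericentromeres 7.65% and 2.43%. At the other arm ends 60 and 85 of 2396 genes were covered, which is 2.504% for H3K27me1 and 3.55% for H3K27me3, and no single other end exceeded 4.22% and 6.21%. In the pericentromeres 22.7% and 17.5% of 3007 genes were covered. In the first flanks 7.598% and 8.71% of 1882 genes were covered. The left flank on chromosome 3 had 14.2% and 12.3%, and the right flank on chromosome 4 had 13.97% and 13.5%. The short-arm end of chromosome 4 had 13.8% and 15.8%, and that of chromosome 2 had 19.2% and 20.1%. Single flanks thus reached the chromosome 4 share for H3K27me1, but not for H3K27me3, and none reached the chromosome 2 shares. At least 1 base lay under H3K27me1 in 376 short-arm genes (54.97%) and under H3K27me3 in 383 (55.99%). Such genes made up 22.7% and 26.03% of all nuclear coding genes, and 55.3% and 49.5% of those in the pericentromeres. By this measure the short-arm share was near the pericentromeric one for H3K27me1 and above it for H3K27me3.

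The higher share was present among short and long genes alike. The median gene was 2072 bp long in the short-arm ends and 2078 bp in the rest of the genome. Among genes of up to 1323 bp 30.1% of short-arm genes were covered by each mark, against 13.3% by H3K27me1 and 13.97% by H3K27me3 elsewhere. Among genes of at least 3031 bp the shares were 8.39% and 9.68%, against 1.57% and 1.46%. Chromosome 2 had 45 and 47 of 234 genes covered, and chromosome 4 had 62 and 71 of 450. Between 1.6 and 2 Mb of chromosome 4, 13 and 10 of 26 genes were covered.

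On chromosome 2 the covered genes under the strongest peaks were a mixed group of secreted and defence-type proteins, enzymes and genes without a name. RNS1, which encodes a secreted ribonuclease induced by phosphate starvation, was covered over its whole length by an H3K27me1 peak of fold 2.002 and an H3K27me3 peak of fold 1.90. TET14, a tetraspanin gene, was covered over 100% by H3K27me1 at a fold of 1.99 and over 72.1% by H3K27me3 at 2.13. PDF2.1 and its neighbours LCR68 and LCR72, which encode small defensin-like proteins, formed a run of 3 consecutive genes covered in full by both marks. LCR69 and LCR73, which lie nearby on either side of this run, had 0% under both. The longest run held 4, which were SK19, SK14, AT2G03180 and SK16, and 3 of them encode SKP1-like proteins, parts of ubiquitin ligases. Such runs were rare, and 24 of the 27 runs on chromosome 2 held 1 gene. PP2-B1, a phloem lectin gene, was wholly under an H3K27me3 peak of fold 1.94 while H3K27me1 touched 0.0573% of it. AT2G02440 had 100% under H3K27me1 at a fold of 1.80 and 34.0% under H3K27me3.

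On chromosome 4 UNE12, a bHLH transcription factor gene named for its role in fertilisation, was wholly under both marks, with a fold of 1.85 for H3K27me1 and 1.99 for H3K27me3. PFA-DSP4, which encodes an atypical dual-specificity phosphatase, was covered over 97.4% and 96.6%, and the nearby AT4G03945 over 100% by each, both in the gene-poor stretch. SULTR3;2, a sulfate transporter gene, had 86.1% under H3K27me1 and 51.0% under H3K27me3. BRCA2(IV) at the chromosome start had 49.0% and 70.4%. AT4G00070 had 50.3% under H3K27me1 and 25.8% under H3K27me3, and AT4G03380 had 58.3% and 55.3%.

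Some genes lay under only 1 mark. On chromosome 2 AT2G01240 and AT2G02550 were wholly under H3K27me1 peaks of fold 1.85 and 1.57 and had 0% under H3K27me3. AT2G02497 was wholly under an H3K27me3 peak of fold 1.95, and AT2G01220 had 54.1% under one of fold 1.98, both with 0% under H3K27me1. On chromosome 4 AT4G00610 had 100% and AT4G03635 had 59.6% under H3K27me1 with 0% under H3K27me3. AGL51, a MADS-box gene, and AT4G00315 were wholly under H3K27me3 peaks of fold 1.91 and 1.90 with 0% under H3K27me1. Their surroundings were not free of the other mark, since the 1 kb sides of AT2G01240 had 69.4% under H3K27me3 and those of AT2G02497 43.2% under H3K27me1. In the narrow lists all of these genes had 0% under both marks except AT2G02550, with 39.2% under H3K27me1. AT2G02550, AT4G00610 and AGL51 had 0% under broad peaks at or above 5 in −log10 q, while the others kept their coverage.

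Among 20 listed developmental regulators in the short-arm ends 5 were covered over at least 50% by H3K27me1 and 6 by H3K27me3, 4 of them by both, where the shares of all 684 short-arm genes were 15.6%, 17.3% and 11.4%. The 4 were SGR5, with 100% under each mark, MYB88, a regulator of stomatal divisions, with 72.5% and 71.0%, AGL30, a MADS-box gene known from pollen, with 54.8% and 53.3%, and CPL3 (ETC3), a repressor of trichome fate, with 91.0% and 74.4%. JLO, a LOB-domain gene, had 71.9% under H3K27me1 and 45.5% under H3K27me3. PFS2 (WOX6), a homeobox gene of ovule patterning, had 12.3% under H3K27me1 and 100% under H3K27me3, and AGL51 had 0% and 100%. This coverage came from weaker peaks. SGR5, MYB88, AGL30, CPL3, JLO, PFS2 and AGL51 all had 0% under broad peaks at or above 5 in −log10 q, for both marks. SGR5, CPL3 and AGL51 also had 0% in both narrow lists. FRI, a gene of flowering time and vernalization need, SWN, which encodes a Polycomb methyltransferase, WRKY22 and LOV1 had 0% under both. The median over the list was 8.73% for H3K27me1 and 25.1% for H3K27me3, where the medians over all 684 short-arm genes were 2.12% and 2.95%.

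Of 12 genes of hormone and light signalling 0 reached 50% by either mark, where 15.6% and 17.3% of all short-arm coding genes did. Each mark touched 6 of them, and 5 were touched by neither. The list medians were 0.406% for H3K27me1 and 2.51% for H3K27me3, beside 2.12% and 2.95% over all 684 genes. Gene length was not matched in these comparisons. The listed genes ran from 1534 bp (PYL7) to 7152 bp (GA1). Among short-arm genes of at least 3031 bp only 8.39% and 9.68% reached 50%. WOL (CRE1), a cytokinin receptor, had 37.7% under H3K27me1 and 36.4% under H3K27me3, GA1, the first enzyme of gibberellin synthesis, had 22.8% and 46.9%, PKS1, a phytochrome substrate, had 25.03% and 6.91%, and DFL2, a GH3-type gene of the auxin response, had 0.812% and 9.25%. Of 4 genes of the cell cycle and protein turnover 0 reached 50%, a number too small to set against the 15.6% and 17.3% of all short-arm genes, and all 4 were touched by both marks. Their medians were 23.9% and 17.3%, above the 2.12% and 2.95% of all 684 genes. CYCD6;1, a D-type cyclin, had 30.5% and 45.3%, PRL, an MCM7 replication helicase subunit, had 27.4% and 17.7%, CAND1, a regulator of cullin ligases, had 20.4% and 16.8%, and CUL1, a cullin, had 5.30% and 6.48%. These lists were drawn up with earlier results of these data known, and their small size leaves wide errors.

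**Figure D5:**
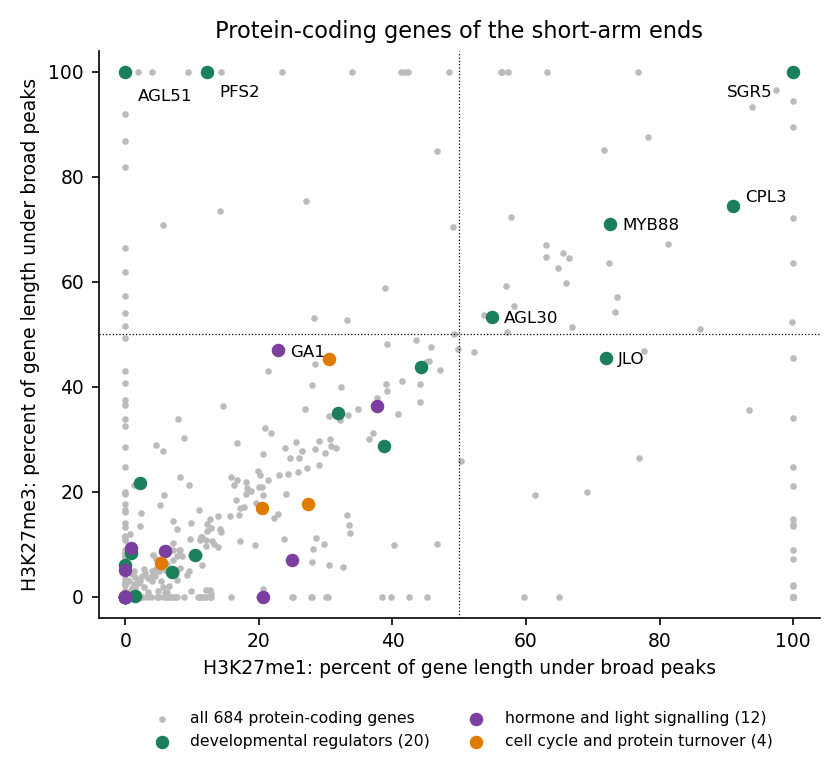
Percent of gene length under H3K27me3 (y axis) against H3K27me1 (x axis) for the 684 protein-coding genes of the short-arm ends, 1 point per gene, with the 3 gene lists in colour and dotted lines at 50%. Most points lie below 50% for both marks, 78 lie at or above it for both, and AGL51 and PFS2 stand at 100% for H3K27me3 with 0% and 12.3% for H3K27me1.

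Genes of snoRNAs, snRNAs and long noncoding RNAs were covered more often than coding genes, and most of them are short. Of 8 snoRNA genes, whose products guide the modification of ribosomal RNA, 7 were covered over at least 50% by H3K27me1 and 8 by H3K27me3, where 25.1% and 30.5% of 279 snoRNA genes in the rest of the genome were. All 8 lay on chromosome 4. AT4G03915 was the 1 with less H3K27me1, at 7.84%. Of 5 spliceosomal snRNA genes 4 were covered by both, among them U2.10 and U6.4, and U2.9 had 0% of each. In the rest of the genome 22.1% of 77 snRNA genes were covered by H3K27me1 and 18.2% by H3K27me3. Of 100 long noncoding RNA genes 39 and 41 were covered, against 17.2% and 18.8% of 3380 elsewhere. Pseudogenes were covered in 26 and 20 of 130 cases, against 10.8% and 7.72% of 4713. Among 10 microRNA genes MIR5642b, MIR5635d, MIR826a and MIR826b were wholly under both marks, and the other 6, which include MIR165b and the cluster MIR447a, MIR447b and MIR447c, had 0% under both. Of 316 microRNA genes elsewhere 17.4% were covered by H3K27me1 and 20.9% by H3K27me3. Median lengths were 112.5 bp for the snoRNA genes and 212 bp for the microRNA genes, so a single peak can take in a whole gene. Neighbouring genes can also lie under the same peak, so these are counts of genes and not of separate peaks.

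At the inner boundary 1 peak per mark and side is given. The last H3K27me1 peak inside on chromosome 2, chr2:998188-999169, had a fold of 2.12 and the first outside, chr2:1001599-1006273, had 1.56. For H3K27me3 the last inside, chr2:998186-999177, had a fold of 2.37 and the first outside, chr2:1000633-1004868, had 1.67. These single inner peaks on chromosome 2 had higher folds and, at 982 and 992 bp against 4675 and 4236 bp, were narrower than the next ones outside. Coverage went the other way. It rose from 40.4% under H3K27me1 and 39.0% under H3K27me3 in the last 100 kb inside to 49.8% and 46.2% in the first 100 kb outside. On chromosome 4 the H3K27me1 peaks chr4:1993725-1997874 inside and chr4:1999516-2000760 outside had folds of 1.44 and 1.45, and the H3K27me3 peaks chr4:1999495-2000429 inside and chr4:2010760-2013125 outside had 1.76 and 1.80.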

How the data were processed

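ChIP-seq of H3K27me1 and H3K27me3 and inputs came from sperm nuclei of htr10 plants, with 3 samples of each kind and 50 bp paired reads, per the labels' protocols. Tools listed in the submitters' processing notes, without their roles, are MACS2 2.1.0, Bowtie2 2.1.0, Trim Galore 0.4.1, Picard, bedtools, SAMtools 1.3 and deepTools 2.5.0.1, with the build TAIR10. Settings, pooling and the input of each list are not given in the sources used here. The authors made and deposited 1 broad and 1 narrow peak list per mark. Per peak the authors' deposited columns hold an integer score, the fold enrichment (a ratio over background), a p-value (not used here) and a q-value on the −log10 scale, which their peak caller computed. Narrow lists add the summit offset. The lowest −log10 q was 1.02 in the broad lists and 2.00 in the narrow ones. No depth or read count is given, so the precision of a peak value is unknown.

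Here overlapping peaks were merged and bases counted in Python 3.11.15 with numpy 2.4.6 and pandas 2.3.3. Shares have 95% Wilson intervals (scipy 1.17.1), and figures used matplotlib 3.10.9. The other arm ends were the first or last 1 Mb, and the pericentromeres were 12 to 18, 1 to 7, 11 to 17, 2 to 6 and 9 to 16 Mb of chromosomes 1 to 5. Genes and names came from RefSeq's TAIR10.1 table, with 27444 nuclear protein-coding genes, each placed by its midpoint. That table gives no strand or exons, so genes were taken from start to end, and no sequence was read. A gene counted as covered at 50% of its length. The coverage functions were tested on simulated data.

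Named genes were, per chromosome and mark, the 5 covered genes under the peaks of highest fold (1 per peak), the 2 covered by that mark and not at all by the other, up to 4 of each list, and HTR10. Runs of neighbouring covered genes, single noncoding genes, further list members and genes under named peaks were chosen after their values were seen. Named peaks were the 3 of highest fold and 2 widest per chromosome and mark, the first, those at the inner boundary and, added later, those of highest q. Members and lists were chosen with earlier results of these data known. Alternatives were a q limit, the upper 50% by fold, the narrow lists, other borders, other overlap and gene thresholds and 50 kb bins. A border at 1.6 Mb, the flanks, bins of like gene content and the removal of the first 12 kb of chromosome 2 were added after seeing the data. The replicates have no values of their own in the lists, and labels do not say that they came from separate plants.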

Additional observations from a re-analysis of the deposited data

How the results depend on the processing

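Both marks covered more of the short-arm ends than of the other arm ends under every alternative run, at 3.71 to 17.0 times for H3K27me1 and 2.64 to 10.7 times for H3K27me3. Of 68 alternative values 36 stayed within 1.5 times the reported one on the same side of 1 or 0, or for shares of peaks within its interval, 27 moved further and 5 changed side. With −log10 q of at least 5 the ratios over the other ends were 17.0 and 10.7, those over the pericentromeres 0.564 and 0.711, the shares of peaks with the other mark 57.9% and 82.9%, and the covered genes 25 and 20, in each case H3K27me1 first. With the upper 50% by fold the H3K27me1 ratios were 6.06 over the other ends and 0.921 over the pericentromeres, the shares with the other mark 78.1% and 80.0%, and the covered genes 71 and 76. In the narrow lists the ratios over the other ends were 7.09 and 4.84, that of H3K27me1 over the pericentromeres 0.873, the shares 77.8% and 84.3%, and the covered genes 7 and 5. Their coding share of peak bases was 0.317 and 0.318 of that of the region, against 0.517 and 0.556 in the broad lists. With the border at 1.6 Mb on chromosome 4 the H3K27me1 ratio over the pericentromeres was 0.987. When the other mark had to cover 50% of a peak, 78.7% and 82.6% of peaks counted as shared. Genes touched at all numbered 376 and 383, and 76 were covered over 90% by H3K27me3. In 50 kb bins r with the coding share was 0.22 and 0.16 on chromosome 2 and -0.41 for H3K27me1 on chromosome 4. The cause was not tested where none is named. No paired analysis was possible because the lists hold no values per sample, and for the same reason no replicate could be left out. Depth cannot be read from the lists.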
